A study of Drosophila melanogaster with 9 samples.

Results

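The genes that encode subunits of the vacuolar proton pump (V-ATPase) were followed in whole Drosophila melanogaster embryos at dorsal closure, the stage at which the epidermis closes over the amnioserosa. Members were all genes whose annotated symbol starts with Vha followed by a digit or capital letters, each read from its probe set with the highest mean. This gave 29 of 10844 genes measured. They were 11 subunits of V1, the cytosolic sector, 16 of V0, the membrane sector, and 2 of the accessory Ac45 type, and 13 counted as ubiquitous, 15 as tissue-specific paralogues and 1 (VhaM9.7-a) as neither. Vha68-1, Vha68-2, Vha16-3 and Vha100-3 were not analysed here, so of the catalytic A subunit only the paralogue Vha68-3 was read.

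The pump is a rotary machine that spends ATP to move protons across membranes. V1 binds and splits ATP, and V0 carries the protons. The pump acidifies lysosomes and endosomes in every cell and synaptic vesicles in neurons, and in insects it also sits in the plasma membrane of Malpighian tubule and gut epithelia, where it energises ion transport. Flies encode several V-ATPase subunits by a broadly expressed gene and by paralogues that are restricted to tissues such as testis, neurons or midgut.

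The study hybridised 9 Affymetrix arrays, 3 from independent RNA samples in each of 3 groups, to find genes that follow the activity of the JNK pathway. GOF embryos (genotype w;UAS-hepACT/+;69B/+) expressed activated Hep, the kinase that switches on JNK, under 69B-GAL4, an ectodermal driver. LOF embryos (y w heprev75/y w hep1) combined a pair of hep alleles. The controls, WT, carried w, a marker that all 3 groups share. All were at stages 13 to 14, in collections kept when over 85% of embryos were at these stages. Since whole embryos were extracted, the arrays also hold RNA of tissues in which the driver is not active, and fewer cells of a type and less RNA per cell cannot be told apart.

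The deposited values are linear intensities after RMA (background correction, quantile normalization and a summary over the probes of a set). Array medians lay between 688 and 709. Across genes, Pearson's r was 0.992 to 0.997 for 2 arrays of 1 group and 0.961 to 0.97 for a GOF and a WT array. A log2 change below is the mean of log2(value + 1) in the first group named minus that in the second, with its standard error (SE), and a gene is called where limma's Benjamini-Hochberg adjusted p over all 10844 genes was below 0.05. Intensities reached 1331513, and neither the table nor the submitters' notes state whether base 2 or base e brought them back from the log scale. The size of the highest values favours base e, although the base was not tested. With base e every log2 change would be 0.693 times the one given, so the changes below may be too large. Folds of the main genes are given under both bases. Probe sets differ in how brightly they read the same amount of RNA, so levels are not compared between genes. hep itself read 3376 ± 264 in GOF, 3494 ± 170 in LOF and 3496 ± 586 in WT (SD, n = 3 each), and puc, the JNK-induced phosphatase gene, rose in GOF (log2 change 1.41, limma adjusted p = 2.49e-06). In LOF puc was not called (1752 ± 55.7 in LOF and 2304 ± 270 in WT, log2 change -0.39, limma adjusted p = 0.0831), so reduced hep function in that group rests on its genotype label.

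In GOF, pump genes moved in both directions. Of the 29 members 7 rose, 5 fell and 17 were not called, so that 41.4% were called beside 36.7% of all genes (16.6% higher and 20.1% lower). Their median log2 change was 0.036, against -0.0345 over all genes. In 7 members every GOF array lay above every WT array and in 7 every one lay below, beside 19.6% and 24.9% of all genes. The rises took in the stator and rotor genes Vha26 and Vha14-1 of V1 and the membrane subunits Vha16-1, VhaAC39-1, VhaM9.7-b, VhaM9.7-c and Vha100-1. The falls took in Vha55, Vha36-1 and Vha13 of V1 and Vha100-4 and VhaM9.7-a of V0.

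**Figure D1:**
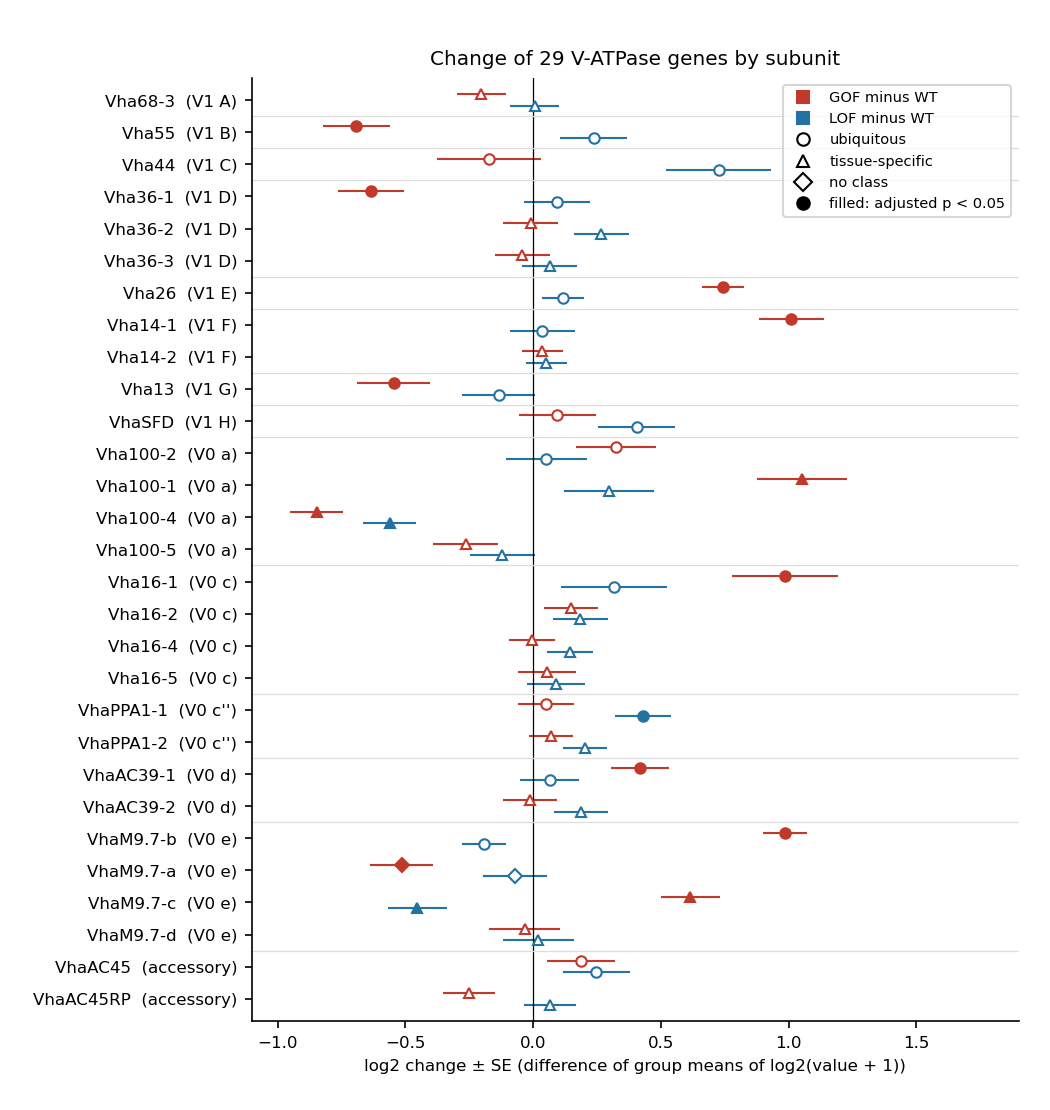
Log2 change ± SE of each of the 29 genes, grouped by subunit from V1 to V0 and the accessory proteins, for GOF minus WT (red) and LOF minus WT (blue). Filled symbols mark an adjusted p below 0.05: red ones lie on both sides of 0, and in LOF only Vha100-4, VhaM9.7-c and VhaPPA1-1 are filled.

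The V1 sector was split between genes that rose and genes that fell. Vha26 encodes subunit E, part of the peripheral stalks that hold the ATP-splitting head still. It read 54786, 56996 and 54214 on the GOF arrays, 37310, 33634 and 36629 on the LOF arrays and 34070, 32381 and 32693 on the WT arrays. The 3 GOF arrays stood well above the other 6, which lay close together (GOF against WT, log2 change 0.74, SE 0.08, limma adjusted p = 2.61e-05, 1.67-fold, or 1.43-fold with base e). Vha14-1 encodes subunit F of the central rotor. Its intensities were 21150, 22356 and 18108 in GOF, 10417, 8760 and 12377 in LOF and 9807, 10390 and 10278 in WT. No GOF array overlapped another group (log2 change 1.01, SE 0.13, limma adjusted p = 6.81e-05, 2.01-fold, or 1.63-fold with base e).

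A further 3 V1 genes fell in GOF. Vha55 encodes subunit B, the non-catalytic partner of the A subunit in the head. It read 3317, 3991 and 4643 in GOF, 8210, 6566 and 7869 in LOF and 6627, 5877 and 6658 in WT. Every GOF array lay below every WT array (log2 change -0.69, SE 0.13, limma adjusted p = 0.00133, a fold of 0.619, or 0.717 with base e). Vha36-1, subunit D of the rotor and the binding partner of subunit F, had 4378, 4313 and 5078 in GOF, 7285, 6695 and 8946 in LOF and 8061, 6264 and 7106 in WT. Again the GOF arrays were lowest, without overlap (log2 change -0.63, SE 0.13, limma adjusted p = 0.00222, a fold of 0.644, or 0.737 with base e). Vha13, subunit G, which pairs with subunit E in the stalks, had 4907, 4833 and 5905 in GOF, 7091, 5566 and 8347 in LOF and 8368, 7165 and 7267 in WT. GOF lay below WT on all arrays, while GOF replicate 3 overlapped LOF (log2 change of GOF against WT -0.55, SE 0.14, limma adjusted p = 0.0101).

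In 2 pairs of subunits that bind each other, singled out after their values were seen, the log2 changes had opposite signs: subunits E and G of the stalk with 0.74 and -0.55, and subunits F and D of the rotor with 1.01 and -0.63. Subunits c and d, which also meet in the pump, both rose (0.99 and 0.42). The remaining ubiquitous V1 genes were not called in GOF. Vha44, subunit C, which joins V1 to V0 and is released when the pump is taken apart, averaged 1142 ± 310 in GOF and 1279 ± 302 in WT (SD, n = 3 each). VhaSFD, the regulatory subunit H, averaged 8460 ± 367 in GOF and 8015 ± 1602 in WT. Its second probe set was not called either (6383 ± 315 in GOF and 6535 ± 943 in WT).

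Of the 5 ubiquitous V0 genes 3 rose in GOF and 0 fell, with log2 changes from 0.0495 to 0.99, beside 16.6% higher and 20.1% lower over all genes and 49.9% called among genes outside the dimmest 40%. Vha16-1 encodes the proteolipid c, which forms most of the rotating ring through which protons pass. It had 63297, 60286 and 46874 in GOF, 27005, 42752 and 38616 in LOF and 28091, 22064 and 37160 in WT. The GOF arrays were highest, but the spread within each group was wide (log2 change 0.99, SE 0.21, limma adjusted p = 0.00256, 1.98-fold, or 1.61-fold with base e). A second, dim probe set annotated to Vha16-1 read 126, 101 and 81 in GOF and 103, 218 and 90 in WT. The groups overlapped there (log2 change -0.32, adjusted p = 0.49 over all probe sets), and averaging both sets ended the call (log2 change 0.33, adjusted p = 0.0782).

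VhaAC39-1, subunit d, the cap that couples the rotor to the ring, read 9016, 8945 and 10337 in GOF, 6634, 7864 and 7639 in LOF and 7614, 6095 and 7507 in WT. The GOF arrays were above all others (log2 change 0.42, SE 0.11, limma adjusted p = 0.0123). VhaPPA1-1, the second kind of ring proteolipid (c''), read 7453, 8114 and 6900 in GOF, against 8154, 7230 and 6386 in WT, and was not called (log2 change 0.0495, adjusted p = 0.795, and -0.0229 after quantile normalization). Vha100-2, the broadly expressed a subunit that forms the proton channels beside the ring, averaged 9645 ± 745 in GOF and 7815 ± 1773 in WT. It was not called (log2 change 0.33, adjusted p = 0.137), but was after cyclic loess normalization (log2 change 0.46, adjusted p = 0.0231) and without WT replicate 1 (0.49, adjusted p = 0.0272).

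**Figure D2:**
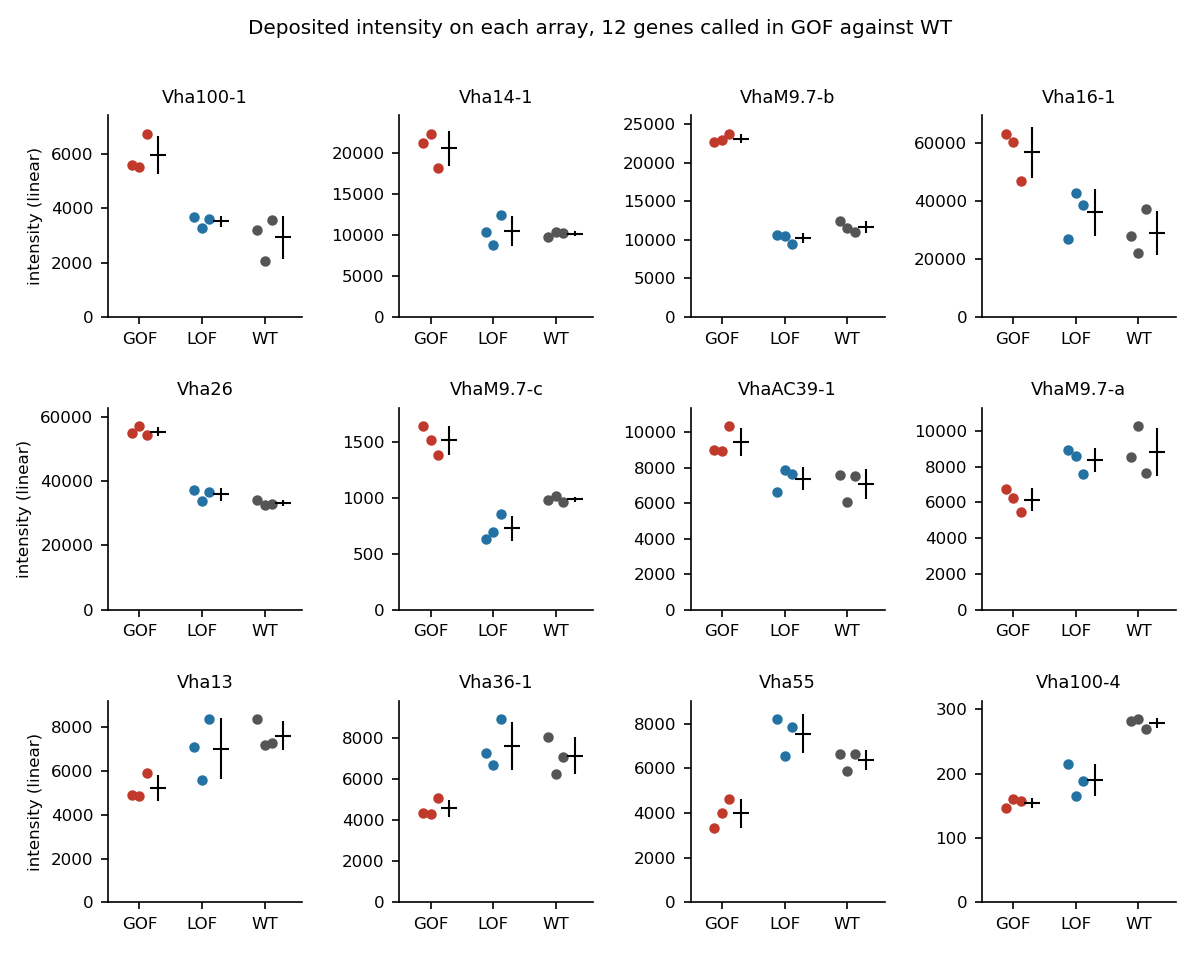
Deposited intensity (linear, each vertical axis from 0) of the 12 members called in GOF against WT, ordered from the highest to the lowest log2 change. Points are the 3 arrays of GOF, LOF and WT, and the bar beside them is the mean ± SD. In all 12 panels the GOF arrays lie outside the range of the WT arrays. For VhaM9.7-c, VhaM9.7-b and Vha100-4 the LOF arrays lie below WT, as they do for 12.5% of all genes. VhaM9.7-b was not called in LOF (log2 change -0.19, limma adjusted p = 0.25).

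Subunit e, a small membrane protein of V0, has 4 genes here, and they did not move together. VhaM9.7-b had 22664, 22853 and 23749 in GOF, 10680, 10433 and 9518 in LOF and 12462, 11496 and 11041 in WT. Its GOF arrays stood far above the rest (log2 change 0.99, SE 0.09, limma adjusted p = 4.65e-06, 1.98-fold, or 1.61-fold with base e). VhaM9.7-a, in contrast, had 6755, 6229 and 5473 in GOF, 8905, 8576 and 7596 in LOF and 8545, 10262 and 7656 in WT. It was lower in GOF on all arrays (log2 change -0.51, SE 0.12, limma adjusted p = 0.00621), and this call ended after cyclic loess normalization (log2 change -0.39, adjusted p = 0.054).

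VhaM9.7-c, listed as tissue-specific, lay on opposite sides of WT in GOF and in LOF. It read 1643, 1524 and 1386 in GOF, 635, 692 and 855 in LOF and 984, 1015 and 966 in WT. The 3 groups did not overlap. GOF against WT gave a log2 change of 0.62 (SE 0.12, limma adjusted p = 0.00122) and LOF against WT one of -0.45 (SE 0.12, limma adjusted p = 0.0484). GOF against LOF, in which the WT arrays do not enter the difference, gave 1.07 (SE 0.12, limma adjusted p = 1.96e-05, 2.10-fold, or 1.67-fold with base e). The LOF call was at the threshold and ended in 9 of 18 alternatives, among them leaving out any one WT array (adjusted p = 0.138, 0.112 and 0.0872 without replicates 1 to 3), GOF replicate 1 (0.051) or 2 (0.0685), or LOF replicate 1 (0.159) or 2 (0.171). VhaM9.7-d was not called (441 ± 18.5 in GOF, 461 ± 69.7 in LOF and 456 ± 78.6 in WT).

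The a subunit also has 4 genes here. Vha100-1, the form known from neurons, where it works on synaptic vesicles, had 5600, 5535 and 6752 in GOF, 3669, 3285 and 3602 in LOF and 3207, 2049 and 3565 in WT. All GOF arrays were higher than all others (log2 change 1.05, SE 0.17, limma adjusted p = 0.000536, 2.08-fold, or 1.66-fold with base e). Markers of neurons moved the other way: of 6 measured of 10 listed, 0 rose and 3 fell in GOF (elav by 1.38, fne by 1.003 and Rop by 0.57 on the log2 scale), and their summed intensity was 16210 to 18305 in GOF against 30682 to 32980 in WT. In LOF 1 rose and 0 fell, with a sum of 30790 to 33160. The brightest, fne, read 17133 to 18709 in LOF against 10705 to 14684 in WT. Without it the other 5 summed to 8857 to 11442 in GOF, 13596 to 14975 in LOF and 15998 to 20172 in WT, so that LOF lay below WT there. The part of these markers in the result was not tested.

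Vha100-4, known from the acid-secreting part of the midgut, lies next to Vha100-2 in the genome. It read 146, 161 and 157 in GOF, 215, 165 and 189 in LOF and 282, 285 and 269 in WT. Both groups lay below WT on every array, GOF with a log2 change of -0.85 (SE 0.10, limma adjusted p = 5.64e-05) and LOF with -0.56 (SE 0.10, limma adjusted p = 0.0121), comparisons that share the WT arrays. The LOF call ended without WT replicate 1 (adjusted p = 0.0561) and without LOF replicate 2 (0.0544). Its mean is among the lowest 40% of gene means. Of 4 measured midgut markers (6 listed) 2 fell in GOF and 0 in LOF, while cad (0.20) and Alp4 (0.11) were not called in GOF. The 4 summed to 4092 to 4430 in GOF, 5824 to 6373 in LOF and 5204 to 6431 in WT. Without GATAe, the brightest, the other 3 summed to 2667 to 2958 in GOF, 3520 to 4003 in LOF and 2944 to 3568 in WT, so that GOF overlapped WT. The part of these markers was not tested. Vha100-5 was not called (546 ± 24.6 in GOF, 604 ± 28.7 in LOF and 664 ± 134 in WT), although its GOF arrays lay below WT.

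Outside subunits a and e, tissue-specific paralogues were not called in GOF or in LOF. Vha68-3, Vha36-2, Vha36-3, Vha14-2, Vha16-2, Vha16-4, Vha16-5, VhaPPA1-2, VhaAC39-2 and VhaAC45RP had log2 changes between -0.25 and 0.15 in GOF. Vha68-3, a form of the catalytic A subunit, read 91, 82 and 93 in GOF, 99, 108 and 101 in LOF and 95, 113 and 99 in WT. Its GOF arrays were the lowest, without overlap with WT (log2 change -0.20, limma adjusted p = 0.13). The c-type ring genes Vha16-2, Vha16-4 and Vha16-5 read 206 to 275, 1171 to 1274 and 1151 to 1351 in GOF, against 211 to 223, 1153 to 1367 and 1068 to 1400 in WT, and GOF overlapped WT for each. The LOF arrays of Vha16-2 read 236 to 258, above all WT arrays (log2 change 0.18, limma adjusted p = 0.367). For Vha36-2 and VhaPPA1-2, forms of subunits D and c'', the LOF arrays also lay above WT (566 to 644 in LOF against 488 to 532 in WT, and 1437 to 1511 in LOF against 1183 to 1360 in WT), but neither was called (log2 changes 0.27 and 0.20, limma adjusted p = 0.196 and 0.217). Vha36-3, a further form of subunit D, read 341 to 406 in GOF, 370 to 465 in LOF and 377 to 400 in WT. Several of these are testis genes in the adult fly. Vha14-2 read 54, 53 and 54 in GOF, 54, 57 and 52 in LOF and 54, 52 and 51 in WT, and VhaAC39-2 read 53 to 62 in GOF, 58 to 74 in LOF and 55 to 59 in WT. These values vary by little and lie near the low end of the table, which starts at 29. Of 13 measured testis markers (15 listed), 0 rose and 1, bol, fell in GOF, while 1 rose and 0 fell in LOF, and bol was the gene called in both. Without bol the other 12 summed to 3274 to 3436 in GOF, 3334 to 3506 in LOF and 2994 to 3530 in WT.

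VhaAC45RP, a neuronal relative of the accessory subunit Ac45, read 6097, 5813 and 5263 in GOF, 7257, 6821 and 7282 in LOF and 7404, 7041 and 6028 in WT. The GOF arrays were below all LOF arrays, but GOF replicate 1 overlapped WT, and GOF against WT missed the threshold (log2 change -0.25, limma adjusted p = 0.0748). It passed after quantile normalization (log2 change -0.31, adjusted p = 0.0439) and without WT replicate 3 (-0.34, adjusted p = 0.0259). Its broadly expressed relative VhaAC45 was not called (3119 ± 448 in GOF, 3246 ± 398 in LOF and 2733 ± 320 in WT). ATP6AP2, another accessory protein of the pump, which falls outside the symbol rule, was not called and varied widely in WT (8286, 8301 and 8998 in GOF against 12753, 4725 and 8552 in WT).

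By class, 8 of 13 ubiquitous members were called in GOF, 5 higher and 3 lower, against 3 of 15 tissue-specific paralogues, 2 higher and 1 lower. The classes differ in brightness as well. Of the tissue-specific members 7 were among the dimmest 40% of genes by mean, and of the ubiquitous ones 0. In that dim 40%, 16.9% of all genes were called, against 49.9% of the other genes (2.12% and 6.47% in LOF against WT, 16.3% and 51% in GOF against LOF). Of the 22 members outside it 11 (50.0%) were called in GOF against WT, close to the 49.9% of all genes outside it. Those genes were not matched to the members in brightness. Whether class matters beyond brightness was not tested.

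Paralogues of a subunit were also set against each other within each array, as the log2 ratio of the tissue-specific to the ubiquitous gene, in an exact permutation test of the F statistic over the 9 arrays. Over the 14 pairs compared, 0 had an adjusted p below 0.05, and 5 had an unadjusted p below it. The test can give no unadjusted p below 0.00357, which is an adjusted p of 0.05 for a single pair. Vha100-4 over Vha100-2 reached that limit, with a ratio lower by 1.17 in GOF and by 0.61 in LOF than in WT on the log2 scale (exact permutation p = 0.00357, adjusted p = 0.05). Vha100-1 over Vha100-2 was higher by 0.73 in GOF (exact permutation p = 0.0179, adjusted p = 0.0625). For Vha16-4 over Vha16-1 and VhaM9.7-d over VhaM9.7-b, the ratios differed by -0.99 and -1.02 between GOF and WT, with the same p-values, while the tissue-specific member of each pair changed by -0.0049 and -0.0325.

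**Figure D3:**
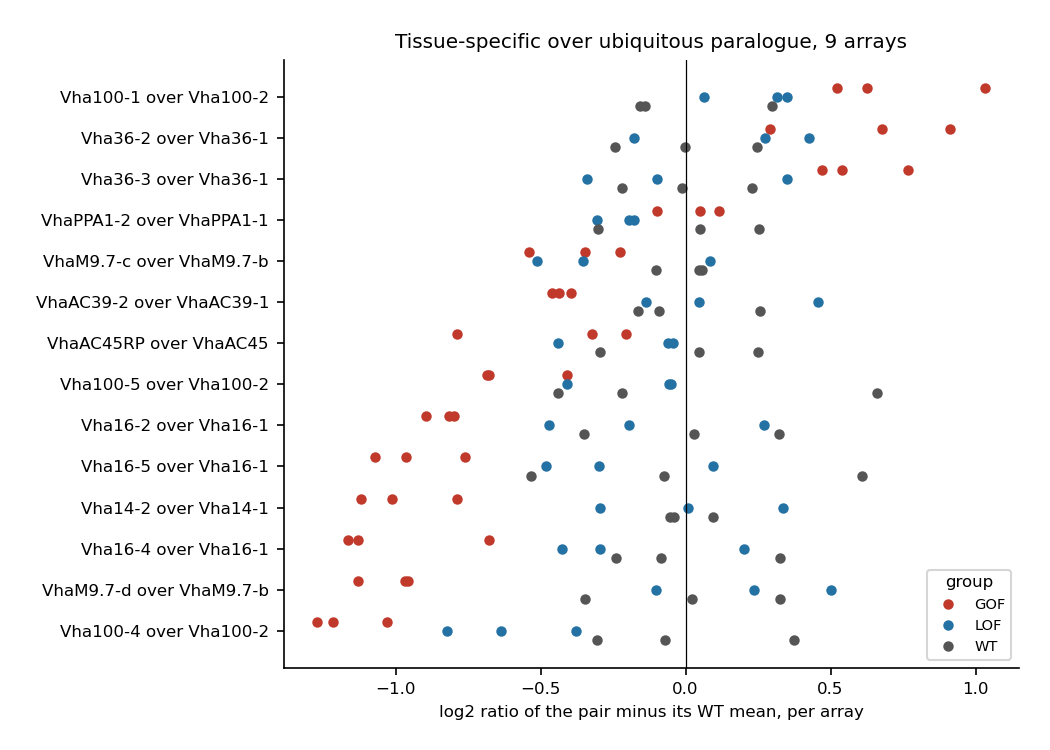
Log2 ratio of a tissue-specific to the ubiquitous paralogue on each array, after subtracting the pair's WT mean, for 14 pairs ordered by the GOF mean. Points are arrays. GOF arrays lie to the left of WT for most pairs, farthest for Vha100-4 over Vha100-2 (mean -1.17), and to the right for Vha100-1 over Vha100-2 (mean 0.73).

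Fewer pump genes were called in LOF than in GOF. In LOF 1 member rose and 2 fell, and 26 were not called, so that 10.3% were called beside 4.73% of all genes (1.36% higher and 3.37% lower). The 2 that fell, Vha100-4 and VhaM9.7-c, are given above. VhaPPA1-1 rose, with 10449, 9547 and 9206 in LOF against 8154, 7230 and 6386 in WT. The groups did not overlap (log2 change 0.43, SE 0.11, limma adjusted p = 0.0486). A second, dim probe set of VhaPPA1-1 gave a log2 change of -0.29 (183, 174 and 133 in LOF against 147, 292 and 179 in WT, adjusted p = 0.553 over all probe sets), and the mean of both sets gave 0.0719 (adjusted p = 0.82). The call ended in 10 of 18 alternatives, among them also an intensity trend (0.0632) and leaving out WT replicate 1 (adjusted p = 0.0552), 2 (0.0983) or 3 (0.133), GOF replicate 1 (0.0605) or 2 (0.0581) and LOF replicate 1 (0.155), 2 (0.133) or 3 (0.0878).

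The V1 sector had 0 of 11 members called in LOF, beside 4.73% of all genes. An unadjusted limma p below 0.05 was found for 3 of them, beside 2146 of 10844 genes. Vha44 came closest, with 1993, 1786 and 2535 in LOF against 1144, 1069 and 1625 in WT. Every LOF array was above every WT array (log2 change 0.73, SE 0.21, limma adjusted p = 0.0691). It was called without WT replicate 3 (log2 change 0.91, adjusted p = 0.0372), without GOF replicate 3 (adjusted p = 0.0246), with only the LOF and WT arrays in the fit (adjusted p = 0.039), and with the replicate number as a block (adjusted p = 0.00578). VhaSFD averaged 10583 ± 1728 in LOF and 8015 ± 1602 in WT (adjusted p = 0.162). Over the 29 members 23 changes were above 0 in LOF, beside 5999 of 10844 over all genes. The median over the members was 0.0896, against 0.0235 over all genes. The LOF arrays all lay above the WT arrays for 6 members and below them for 3, beside 13.1% and 12.5% of all genes.

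GOF was also set against LOF, the group with activated Hep against the one labelled with a pair of hep alleles. Of the 29 members 7 were higher and 8 lower in GOF (51.7%), beside 37.1% of all genes (17.7% higher and 19.4% lower). The arrays did not overlap for 7 members higher and 11 lower in GOF, beside 19.9% and 29.6% of all genes. VhaM9.7-b (log2 change 1.18, SE 0.09), Vha14-1 (0.97, SE 0.13), Vha100-1 (0.76, SE 0.17) and Vha26 (0.63, SE 0.08) were higher in GOF. Vha55 (-0.93, SE 0.13), Vha44 (-0.90, SE 0.21) and Vha36-1 (-0.73, SE 0.13) were lower, with adjusted p-values in limma of 0.000153, 0.00428 and 0.000853. Vha44 read 911, 1020 and 1494 in GOF and 1993, 1786 and 2535 in LOF, with no overlap, while WT lay among and above the GOF arrays.

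The calls of 7 other members in GOF against LOF ended when arrays were left out. Those of Vha16-1 (0.67, ended without GOF replicate 1 or 2 or LOF replicate 1, adjusted p from 0.0754 to 0.107) and VhaAC39-1 (0.35, without GOF replicate 3, 0.0978, or LOF replicate 1, 0.12) were among them, as were those of VhaM9.7-a (-0.44, without GOF replicate 3, 0.0513, or LOF replicate 1, 0.0593) and VhaPPA1-1 (-0.38, without GOF replicate 3, 0.0574, or LOF replicate 1, 0.0714). For VhaPPA1-1 the mean of both probe sets gave -0.10 (adjusted p = 0.616), with 0.17 in the second set alone. VhaAC45RP (-0.32) lost its call without GOF replicate 2 (0.0576) or 3 (0.0948) or LOF replicate 1 (0.0806) or 3 (0.0771). Vha13 (-0.41) lost it without WT replicate 2 (0.0509) or 3 (0.0542), GOF replicate 1 (0.108) or 2 (0.131), or LOF replicate 1 (0.11) or 3 (0.169). Vha100-4 (-0.29) lost it without any one array but LOF replicate 2 (adjusted p from 0.057 to 0.2). After cyclic loess normalization 7 members were higher and 3 lower, while over all genes 2184 were higher and 1440 lower in place of 1923 and 2102.

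Genes that work with the pump are given next, to be read against the 36.7% of all genes called in GOF and the 49.9% called outside the dimmest 40%. In LOF 4.73% of all genes were called, and 2146 of 10844 had an unadjusted limma p below 0.05. Among the pump's regulators, Rbcn-3B, a subunit of the complex that helps V1 and V0 assemble, fell (1348 ± 158 in GOF and 2116 ± 558 in WT, log2 change -0.62, adjusted p = 0.0108), as did mtd, a TLDc-domain protein of the family that binds the pump (-0.80, adjusted p = 0.00376). Mitf, the transcription factor that drives V-ATPase and lysosomal genes in flies, read 36 ± 2.65 in GOF, 35 ± 3 in LOF and 37.7 ± 4.51 in WT. These values are near the lowest of the table, and Mitf was not called (adjusted p = 0.747 in GOF and 0.661 in LOF).

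Of 19 measured lysosomal enzymes and membrane proteins (26 listed), 4 rose and 6 fell in GOF (52.6% called), with a median log2 change of -0.14 beside -0.0345 over all genes. The rises of cathD, an acid protease of the lysosome (31303 ± 3342 in GOF and 6446 ± 871 in WT, log2 change 2.28, adjusted p = 4.09e-08), and Npc2a, a sterol carrier of its lumen (16818 ± 877 in GOF and 3477 ± 315 in WT, 2.28, adjusted p = 1.08e-08), exceeded the log2 change of every pump gene measured. The glycosidase genes Gal (-1.36) and Hexo2 (-0.65) fell. In LOF 0 rose and 2 fell, Gal (-0.94, adjusted p = 0.00646) and Lamp1, a coat protein of the lysosomal membrane (35244 ± 1773 in LOF and 50693 ± 5613 in WT, -0.52, adjusted p = 0.0305).

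Of 19 measured genes of endolysosomal traffic (25 listed), 8 rose and 3 fell in GOF (57.9% called, beside 36.7% of all genes), with a median of 0.11. Hrs (1.63, adjusted p = 4.31e-07) and Stam (0.78), which together sort ubiquitinated cargo on endosomes, were among those that rose, as were Vps39 of the HOPS tether (0.95) and the endosomal chaperone gene Rme-8 (1.27). In limma 0 of the 19 were called in LOF, and 4 had an unadjusted p below 0.05. The lysosomal platform of TORC1, the kinase complex that is switched on at the surface of acidified lysosomes, had 3 rises and 4 falls among 13 measured of 18 listed (53.8% called). Lamtor1, its anchor, rose (5993 ± 708 in GOF and 2837 ± 170 in WT, 1.07), while RagC-D (-0.63), Wdr24 (-0.54) and Wdr59 (-0.36) fell. In LOF Lamtor4 fell (-0.65, adjusted p = 0.0111).

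Transporters that use or accompany the proton gradient gave 2 rises and 4 falls among 16 measured of 18 listed, which at 37.5% is close to the 36.7% of all genes. The rises were those of CAH2, a carbonic anhydrase (1.05), and ClC-c, an endosomal chloride-proton exchanger (0.95), and the falls included Nhe1, a sodium-proton exchanger (-0.69), and nrv2, a sodium pump subunit (-0.88). The mitochondrial ATP synthase, the related rotary machine that makes ATP, had 3 rises and 3 falls among 14 measured genes (42.9% called), with ATPsynO (0.77) and ATPsynCF6 (0.83) higher and the head subunit gene ATPsynbeta (-1.05) and the rotor gene ATPsyngamma (-0.69) lower. None of either list was called in LOF with limma, where 0 transporters and 1 ATP synthase gene had an unadjusted p below 0.05.

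**Figure D4:**
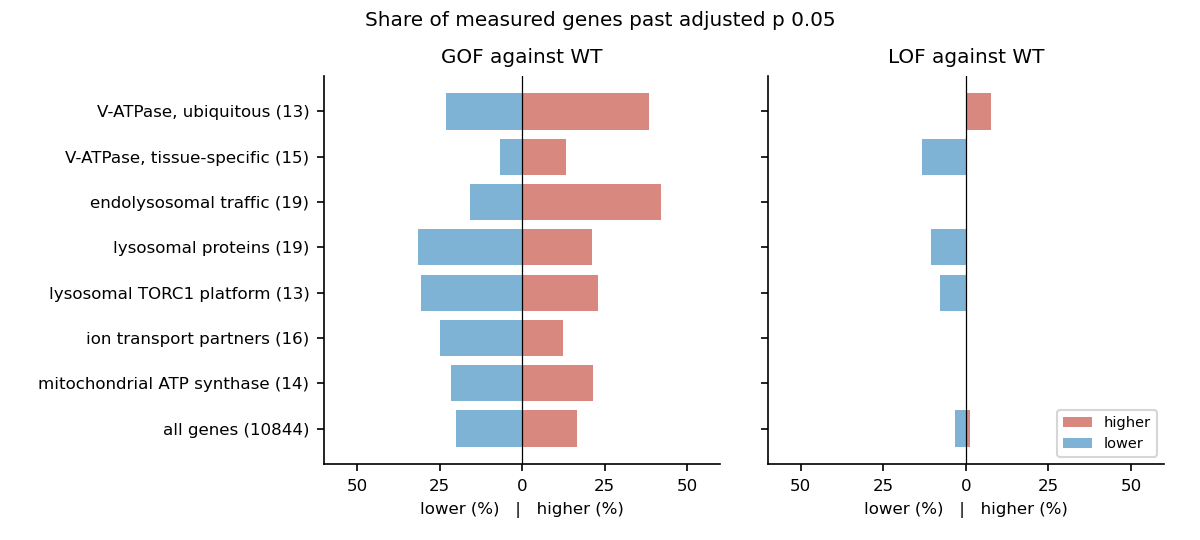
Share of measured genes called higher (red, right) and lower (blue, left) in each list, for GOF against WT and LOF against WT, with the number measured in brackets and all genes at the bottom. In GOF each of the lists drawn has calls on both sides, 5 higher and 3 lower among the 13 ubiquitous V-ATPase genes.

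Maternal and germ-line RNA and the markers of several tissues moved with these comparisons. For the marker counts here and above, 16.6% of all genes rose and 20.1% fell in GOF. In LOF 1.36% of all genes rose and 3.37% fell. Of 19 measured maternal and germ-line genes (20 listed) 12 rose and 2 fell in GOF and 5 rose in LOF, and their summed intensity was 39964 to 58436 in GOF, 14955 to 17313 in LOF and 13797 to 14915 in WT. Epidermal markers had 1 rise and 7 falls among 9 measured (10 listed) in GOF and 1 fall in LOF, with a sum of 26358 to 33144 in GOF, 37263 to 38594 in LOF and 39583 to 41926 in WT. Without neo, the brightest, the other 8 summed to 15083 to 19793 in GOF, 15816 to 16821 in LOF and 17600 to 21255 in WT. GOF overlapped both other groups there, while every LOF sum lay below every WT sum. Malpighian tubule markers, 8 measured of 9 listed, had 0 rises and 5 falls in GOF and 0 of either in LOF, with a sum of 11672 to 13225 in GOF, 21861 to 22159 in LOF and 16206 to 21719 in WT. Hemocyte markers, 9 measured of 10 listed, had 6 falls in GOF and 3 rises in LOF, with a sum of 50373 to 55477 in GOF, 137546 to 154175 in LOF and 89359 to 105077 in WT. No marker is listed at 0, since the lowest value in the table is 29. Whether the listed markers are restricted to their tissues in these embryos was not tested, nor was the part of these shifts in the pump gene changes.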

How the data were processed

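The table the authors deposited gives a linear intensity for every probe set on each array. Per the submitters' processing notes it comes from RMA, with version, settings and the base of the return to a linear scale unstated. Of 14010 probe sets, 239 exceeded 65535 on some array. With the platform annotation, 12443 sets had 1 symbol, 327 had several and the others were unnamed here or controls. Symbols were updated by gene number through RefSeq's Release 6 gene table, where all 29 members matched. The set with the highest mean stood for each of the 1209 genes with several sets. No sequence and no genome position is printed, since the sources used here give none for the probes.

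Log2(value + 1) of 10844 genes on all 9 arrays went into a single limma model with a mean for each group (limma 3.58.1 under R 4.3.3, functions lmFit and eBayes). The model had 6 residual degrees of freedom and 5.39 from the prior, tests were two-sided, and low values were not filtered. Precision is limited by 3 arrays per group, with a median SE of 0.11. The fit was also run on simulated data with far fewer changed genes than were called in GOF, so that run does not test the calls made here. Whether the independent RNA samples came from separate collections is not stated for each, so p-values measure the spread between these samples. Every member is named, with per-array values for those called in a comparison, and of each other list up to 4 genes with the smallest p in GOF and in LOF. Members, lists and classes were chosen with earlier results of these data known. The roles and the split into ubiquitous and tissue-specific genes come from general knowledge of the fly. Cross-hybridisation between paralogues was not tested. Alternatives were a pseudocount of 50, leaving out the dimmest 40% of genes, quantile and cyclic loess normalization, the replicate number as a block, fits on 2 groups, an intensity trend, the mean of all probe sets, the natural logarithm and leaving out each array.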

Additional observations from a re-analysis of the deposited data

How the results depend on the processing

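The 12 calls of pump genes in GOF against WT held in the 9 fits that left out 1 array. Over all 18 alternatives 2 of them ended, Vha16-1 with the mean of all probe sets and VhaM9.7-a after cyclic loess. The GOF count ranged from 7 to 8 higher and from 5 to 6 lower over the fits without 1 array. In LOF against WT, the count of members that rose was 2 with the replicate number as a block, 2 with only the 2 groups compared, 0 with an intensity trend, 0 with the mean of all probe sets, and 0 to 2 without 1 array. The count that fell was 1 with a pseudocount of 50, 1 without the dimmest 40% of genes (where Vha100-4 is not tested), 1 with the replicate block, and 0 to 2 without 1 array. In GOF against LOF the count that was lower was 3 after cyclic loess and 4 to 8 without 1 array.

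The median log2 change over the members in GOF against WT was 0.0621 without the dimmest 40%, 0.0042 after quantile normalization, 0.0909 after cyclic loess, -0.0049 with the mean of all probe sets, and 0.007 to 0.0731 without 1 array. In LOF against WT it was 0.066 with the mean of all probe sets and 0.0831 to 0.137 without 1 array. In GOF against LOF it was -0.1113 with a pseudocount of 50, -0.0081 after cyclic loess, -0.1067 with the mean of all probe sets, and -0.1737 to -0.1129 without 1 array. The cause of these shifts was not tested. Of 996 values of uncalled members under the alternatives 55 changed sign, and no called one did. Many of these values could not change sign. The natural logarithm, replicate block, intensity trend, omission of dim genes and fits on only the compared groups cannot alter it. Leaving out an array of a group outside the comparison cannot either. These counts therefore overstate how stable the signs are. The paralogue test cannot bring a single pair below the threshold, so its count of 0 in each setting says nothing about stability. The replicate numbers did not pair the arrays: deviations of same-numbered arrays correlated at -0.18 to 0.187, and 3 of 9 arrays correlated best with their own number. Dim probe sets limit what can be seen of the tissue-specific paralogues, 7 of which lie in the lowest 40% of gene means.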
